A study of Mus musculus with 6 samples.

Results

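The 10 genes described here, *Myh7*, *Myl2*, *Myl3*, *Tnnc1*, *Tnni1*, *Tnnt1*, *Tpm3*, *Mb*, *Atp2a2* and *Csrp3*, code for proteins of slow and oxidative muscle fibres and were taken by symbol from the 55573 genes of the RNA-seq tables. They were chosen by their normalized values in these 6 mice, because these were uneven among the Wt mice and high in every mutant mouse, so their difference between the genotypes is described below with no test. RNA-seq was performed on inguinal fat, a white fat pad under the skin of the groin, of 3 Wt and 3 mutant male mice aged 3 months, with 1 library of total RNA per mouse. The mutant mice carry the K283Q/K288R change of thyroid hormone receptor alpha as a homozygous, global mutation, so every tissue carries it and no promoter or Cre limits it to fat. Both genotypes have the strain label C57BL/6NTac, were fed regular chow and received no treatment. The sources used here do not say whether the mice were littermates.

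Skeletal muscle is a mixture of fibres. Slow fibres contract slowly, resist fatigue and burn fuel in mitochondria, whereas fast glycolytic fibres contract quickly and tire, and each fibre type assembles its sarcomeres from its own isoforms of myosin, troponin and the calcium pump. Thyroid hormone acting through its receptors is a classical regulator of this choice, and mouse limb muscle is dominated by fast fibres.

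The libraries held 19607423 to 24228381 reads on genes, and 3 reads correspond to a normalized value of 0.126 to 0.157. The normalized value is the authors' scaled number of reads, close to CPM. Markers of white adipocytes, the labelled tissue, were abundant in all 6 mice, with *Fabp4* (a fatty acid carrier) between 5789 and 9575 and *Adipoq* (adiponectin) between 1332 and 2219. RNA of striated muscle was present in every library too, and a list of 14 fast-fibre genes made up 1.40% to 2.67% of all values in the Wt mice, with 2.13% to 3.37% in the mutant mice. The 10 slow-fibre genes made up 0.0268% to 0.0791% in the Wt mice, with 0.129% to 0.168% in the mutant mice. In RNA from a whole fat pad, more fibres of a type and more RNA per fibre cannot be told apart. *Thra*, the mutated gene, was at 131 ± 15.2 in the Wt mice, with 149 ± 18.3 in the mutant mice (SD, n = 3), a log2 difference of 0.19 (limma adjusted p = 0.404), and its RNA level does not check the labels because the mutation changes codons. The libraries stood apart in other ways. The summed value of 5 B cell markers was 3.09 in mutant mouse 1 and 362 to 790 in the other 5 mice, that of 6 keratinocyte markers was 77.5 in mutant mouse 2 and 7.02 to 24.8 elsewhere, and that of 18 genes of every striated fibre was 7930 in Wt mouse 3 and 14710 to 22632 elsewhere.

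*Myh7* codes for the slow myosin heavy chain, the motor protein of type I fibres and of the ventricle of the heart. Its normalized value was 2.47, 150.1 and 35.8 in Wt mice 1, 2 and 3, against 444, 303 and 422 in mutant mice 1, 2 and 3. Wt mouse 1 was close to empty of *Myh7* with 59 reads, Wt mouse 2 held most of the Wt signal, and the lowest mutant mouse was still 2.02 times the highest Wt mouse. The means were 62.8 ± 77.4 in the Wt mice, with 389.7 ± 76.0 in the mutant mice, a ratio of 6.21 and a difference of 3.93 on the log2 scale. The gene (ENSMUSG00000053093) lies at chr14:54970684-54994626 on the minus strand of GRCm38, the build of all coordinates given. The motor domains of the adult myosins are close in sequence, so the stretch of 90 coding bases around the ATP-binding loop is shown for *Myh7* and for the 3 fast myosins with which it is compared below. It was read from GENCODE M21 transcripts, in exons 6 to 8 of *Myh7* (chr14:54991143-54991841, minus strand), exons 5 to 7 of *Myh2* (chr11:67175096-67176311, plus strand), exons 5 to 7 of *Myh1* (chr11:67202586-67204406, plus strand) and exons 4 to 6 of *Myh4* (chr11:67241547-67242318, plus strand), introns removed. Capitals mark the bases that differ from *Myh7*.
Myh7: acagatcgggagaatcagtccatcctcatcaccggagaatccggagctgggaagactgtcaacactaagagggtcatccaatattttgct
Myh2: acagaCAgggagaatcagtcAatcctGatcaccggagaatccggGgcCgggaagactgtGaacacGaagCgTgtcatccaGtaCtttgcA
Myh1: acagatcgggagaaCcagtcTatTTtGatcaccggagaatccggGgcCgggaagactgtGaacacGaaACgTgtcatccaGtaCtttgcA
Myh4: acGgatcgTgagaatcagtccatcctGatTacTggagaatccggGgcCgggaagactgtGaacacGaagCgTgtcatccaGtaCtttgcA
In this stretch *Myh2* differed from *Myh7* at 13 bases, *Myh1* at 15 and *Myh4* at 14, an identity of 83.3% to 85.6%. Over the whole annotated transcripts, 15.6% of the 50-base words of *Myh7* also occurred in another gene, mostly in *Myh6*, the heart's fast myosin. *Myh6* itself had a value of at most 0.681 in any mouse. Some reads of the pair may therefore have been divided between them, and the *Myh7* value is uncertain to that extent.

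**Figure D1:**
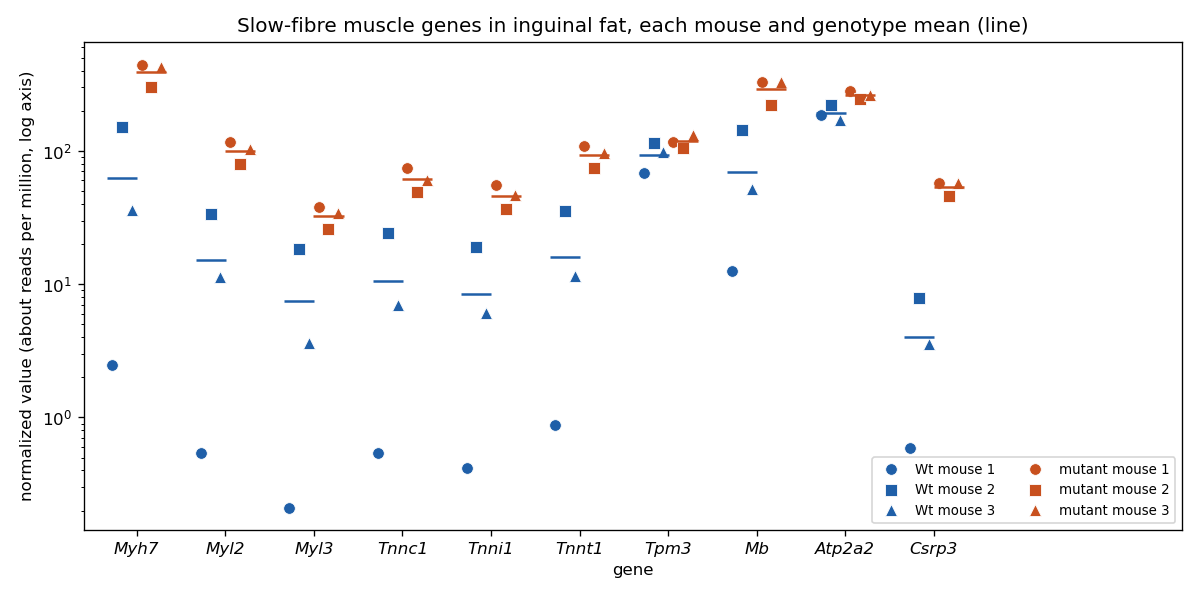
Normalized value (close to CPM, log axis) of each slow-fibre gene in each mouse, with Wt mice in blue, mutant mice in orange, a symbol for each mouse number and a line at the genotype mean. Wt mouse 1 lies far below the other mice for 8 genes, the mutant mice lie close together, and *Tpm3* and *Atp2a2* vary little.

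The slow myosin light chains had the same uneven pattern as the heavy chain. *Myl2* (chr5:122100951-122113472, plus strand), the regulatory light chain of slow and ventricular myosin, was at 0.545, 33.7 and 11.2 in Wt mice 1, 2 and 3, against 117, 80.1 and 103 in mutant mice 1, 2 and 3. The genotypes did not overlap, and the means of 15.1 ± 16.9 and 99.99 ± 18.5 had a ratio of 6.60. *Myl3* (chr9:110741861-110769798, plus strand), the essential light chain of the same myosin, was at 0.209, 18.4 and 3.62 in the Wt mice, against 37.6, 25.8 and 34.4 in the mutant mice. Wt mouse 1 had 5 reads of *Myl3*, just above the value of 3 reads, so that its ratio to the other mice is known only roughly. Here the gap between genotypes was smaller, with the lowest mutant mouse at 1.40 times the highest Wt mouse and means of 7.42 ± 9.69 and 32.6 ± 6.14. *Myl3* shares 95 exonic bases with *Pth1r* on the other strand, a gene of 0.856 times its mean value, and whether strand was used in counting is not given in the sources used here.

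The 3 subunits of slow troponin, the calcium switch of the thin filament, varied together from mouse to mouse. *Tnnc1* (chr14:31208312-31211729, plus strand), the subunit that binds calcium, was at 0.545, 24.0 and 6.98 in Wt mice 1, 2 and 3, against 74.1, 48.9 and 60.3 in mutant mice 1, 2 and 3, with a ratio of means of 5.81. *Tnni1* (chr1:135779434-135810989, plus strand), the inhibitory subunit, was at 0.419, 18.9 and 6.10 in the Wt mice, against 55.1, 36.9 and 46.7 in the mutant mice, with a ratio of 5.46. *Tnnt1* (chr7:4504570-4516382, minus strand), the subunit that anchors the complex to tropomyosin, was at 0.880, 35.5 and 11.4 in the Wt mice, against 108, 74.9 and 96.4 in the mutant mice, with a ratio of 5.85. For all 3 subunits Wt mouse 1 was the lowest and mutant mouse 1 the highest of the 6 mice, and the genotypes did not overlap. The lowest mutant mouse stood at 1.96 to 2.11 times the highest Wt mouse. The slow subunits were little affected by shared sequence, with at most 0.827% of their 50-base words found in another gene.

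*Mb* (chr15:77015487-77050670, minus strand) codes for myoglobin, which stores oxygen in oxidative fibres, both slow and fast. It was at 12.7, 142 and 51.5 in Wt mice 1, 2 and 3, against 326, 222 and 328 in mutant mice 1, 2 and 3. The order of the Wt mice was that of *Myh7*, but Wt mouse 1 was less empty, with Wt mouse 2 at 11.3 times its value against 60.7 times for *Myh7*. The means were 68.9 ± 66.6 and 292 ± 60.4, a ratio of 4.24. *Mb* shares 64 exonic bases on the other strand with *Apol6*, whose mean value was 2.07 times that of *Mb*. *Csrp3* (chr7:48830398-48848033, minus strand), the muscle LIM protein of the Z-disc, had the largest ratio among the 10 genes. Its values were 0.587, 7.83 and 3.53 in the Wt mice, against 57.3, 45.7 and 57.5 in the mutant mice. The lowest mutant mouse was at 5.84 times the highest Wt mouse, and the means of 3.98 ± 3.64 and 53.5 ± 6.78 had a ratio of 13.4.

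*Tpm3* and *Atp2a2* behaved otherwise, and both are made outside slow muscle as well. *Tpm3* (chr3:90072649-90100902, plus strand) codes for the slow alpha-tropomyosin and, from another promoter, for a cytoskeletal tropomyosin of most cells. It was at 68.2, 114 and 98.1 in Wt mice 1, 2 and 3, against 117, 105 and 132 in mutant mice 1, 2 and 3. Mutant mouse 2 was below Wt mouse 2, so the genotypes overlapped, and the means of 93.4 ± 23.2 and 118 ± 13.5 had a ratio of 1.26. Of the 50-base words of *Tpm3*, 23.2% also occurred in another gene, mainly *Tpm3-rs7*, so its value is uncertain. *Atp2a2* (chr5:122453513-122502225, minus strand) codes for the calcium pump SERCA2, whose muscle form refills the calcium store of slow fibres and whose other form is found in most cells. It was at 186, 220 and 169 in the Wt mice, against 282, 245 and 262 in the mutant mice. These groups did not overlap, but the lowest mutant mouse was only 1.11 times the highest Wt mouse, and the ratio of the means was 1.37. The gene tables do not separate the transcript forms of either gene.

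Across the 10 genes, all of which passed the filter on low values, the genotypes did not overlap for 9, a count that the choice of the genes fixes. Among all 16868 genes tested, 14.9% were higher in every mutant mouse than in every Wt mouse. The median log2 difference of the 10 genes was 3.32, beside -0.05 for all genes tested. It was 2.09 without Wt mouse 1 and 4.35 without Wt mouse 2, so its size depended on these libraries. Wt mouse 2 was the highest Wt mouse for 10 of 10 genes, mutant mouse 2 the lowest mutant mouse for 10 of 10, and Wt mouse 1 the lowest of the 6 for 9 of 10. Leaving aside *Tpm3* and *Atp2a2*, a division made after the values were seen, Wt mouse 2 exceeded Wt mouse 1 by 11.3 to 88.0 times (median 44.6) and Wt mouse 3 by 2.22 to 5.09 times. The highest and lowest mutant mouse differed by 1.26 to 1.52 times for the same 8 genes. Uneven Wt values were a ground for the choice of the genes, so this difference in spread is only described. The centred log2 profile of each gene over the 6 libraries had a Pearson r with the mean profile of the 10 genes of 0.995 to 0.999 for *Myh7*, *Myl2*, *Myl3*, *Tnnc1*, *Tnni1*, *Tnnt1* and *Mb*, 0.971 for *Csrp3*, 0.934 for *Tpm3* and 0.848 for *Atp2a2*. Each gene is part of that mean, the libraries are shared by all of them, and the genes were chosen for a common pattern over these libraries.

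Outside the gene lists, the genes with the profile most like the mean of the 10 were *Rras2* (r = 0.995 over 6 libraries), *Zfp715* (0.995), *Ssu2* (0.987), *Morf4l1* (0.980), *Krr1* (0.980), *Gm15737* (0.976), *Uba2* (0.976) and *Unc45bos* (0.976). Their values ranged far less, with log2 differences of 0.07 to 0.58 between the genotypes. *Rras2*, a small GTPase, was at 31.0, 35.7 and 34.3 in Wt mice 1, 2 and 3, against 38.4, 37.2 and 37.6 in the mutant mice. Of all genes tested, 41 had an r above 0.95. This count includes the 10 genes themselves, except *Tpm3* and *Atp2a2*, and any other listed gene above that value.

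Per kilobase of annotated exon, *Mb* had the highest level of the 10 genes in the mutant mice, at 196 ± 40.5. *Tnnc1* (58.7 ± 12.1), *Myl2* (51.3 ± 9.47), *Myh7* (45.2 ± 8.83), *Atp2a2* (43.3 ± 3.07) and *Tnnt1* (42.3 ± 7.67) followed, and neighbours among these 5 genes did not differ beyond their spread. Lower per-kilobase levels were those of *Csrp3* (20.0 ± 2.54), *Tpm3* (19.4 ± 2.23), *Myl3* (16.0 ± 3.00) and *Tnni1* (12.8 ± 2.53). The length used is that of all annotated exons of a gene merged, 3600 bases for *Tnni1* and 1041 for *Tnnc1*. It can exceed that of the transcript made in muscle, so the order of the genes depends on the annotation. In the Wt mice, the per-kilobase levels of *Mb* (46.2 ± 44.6) and of *Atp2a2* (31.5 ± 4.27) came first, and *Myh7* was at 7.28 ± 8.98. The SD was larger than the mean there for *Myh7*, *Myl2*, *Myl3*, *Tnnc1*, *Tnni1* and *Tnnt1*.

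To set the slow isoforms against their fast partners within each mouse, the share of the slow gene in the per-kilobase level of the pair was computed. *Tnni1* made up 0.0181%, 0.818% and 0.532% of *Tnni1* plus *Tnni2* in Wt mice 1, 2 and 3, against 1.85%, 1.91% and 1.59% in mutant mice 1, 2 and 3. The exact 95% interval for Wt mouse 1 was 0.0087% to 0.0334%, which covers counting error only. *Tnnc1* was 0.960% ± 0.875 of its pair with *Tnnc2* in the Wt mice and 3.62% ± 0.379 in the mutant mice. For both pairs the slow share was small in every mouse, higher in each mutant mouse than in any Wt mouse, and less variable among the mutant mice. The same held for *Tnnt1* against *Tnnt3* (0.596% ± 0.539 and 2.07% ± 0.164), *Myl2* against *Mylpf* (1.36% ± 1.27 and 4.23% ± 0.307) and *Myl3* against *Myl1* (1.18% ± 1.28 and 3.43% ± 0.260). In all these pairs the separation and the difference in spread follow in part from the choice of the slow genes. For the pumps, *Atp2a2* against *Atp2a1*, the genotypes overlapped at 2.87% ± 0.975 and 3.15% ± 0.685. Mutant mouse 2, the lowest mutant mouse for each slow gene, had the highest slow share of the mutant mice in all 6 pairs.

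**Figure D2:**
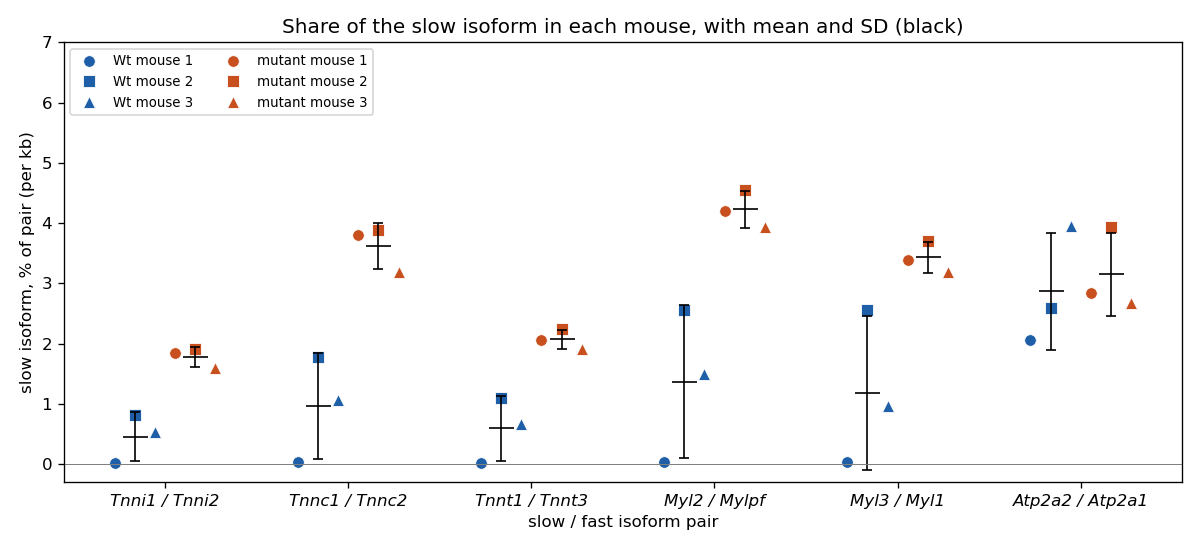
Share of the slow isoform in the per-kilobase level of each slow and fast pair (percent), per mouse, with the genotype mean and SD in black. For *Tnni1* with *Tnni2*, the Wt mice range from 0.0181% to 0.818% and the mutant mice from 1.59% to 1.91%, and only the pair *Atp2a2* with *Atp2a1* overlaps.

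Among the 4 adult myosin heavy chains, *Myh4*, the chain of the fastest fibres (type IIb), made up 99.6%, 94.98% and 95.7% of the per-kilobase level in Wt mice 1, 2 and 3, against 75.0%, 69.6% and 76.0% in mutant mice 1, 2 and 3. *Myh7* took 0.0152%, 1.02% and 0.470% in the Wt mice, against 2.62%, 2.79% and 2.42% in the mutant mice. The slow chain was thus a small minority in every mouse, including the mutant mice. The largest share after *Myh4* in every mutant mouse was that of *Myh1*, the chain of type IIx fibres, at 0.259%, 2.58% and 2.95% in the Wt mice, against 19.3%, 24.8% and 18.5% in the mutant mice. *Myh2*, the chain of fast oxidative type IIa fibres, was at 0.170%, 1.41% and 0.905% in the Wt mice, against 3.13%, 2.85% and 3.06% in the mutant mice. *Myh2* had the Wt order of *Myh7*, with mouse 1 lowest and mouse 2 highest, whereas for *Myh1* Wt mice 2 and 3 were close together. Sequence shared among the fast chains over their whole transcripts was not measured, so their shares are uncertain to that extent.

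**Figure D3:**
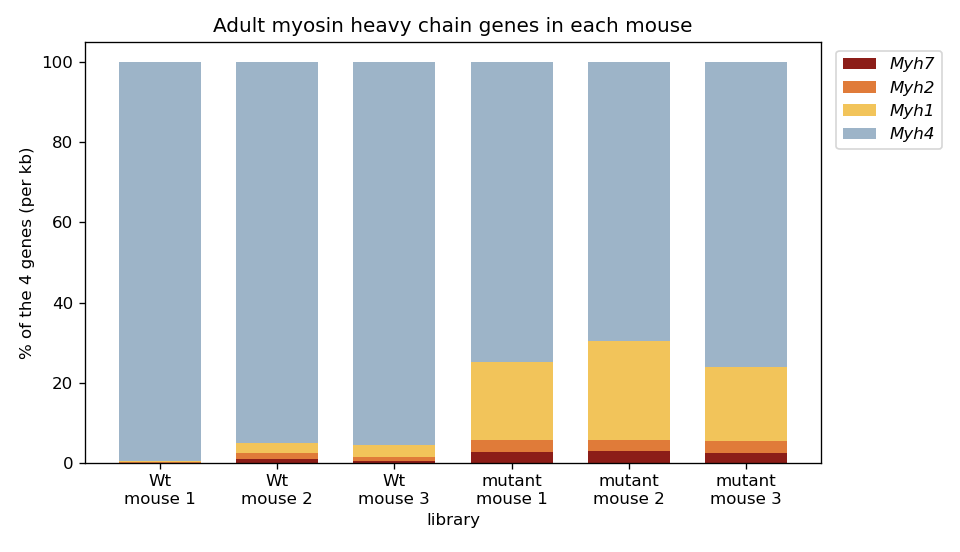
Share of *Myh7*, *Myh2*, *Myh1* and *Myh4* in their summed per-kilobase level (percent, stacked to 100) in each library. *Myh4* fills 94.98% to 99.6% of the Wt bars and 69.6% to 76.0% of the mutant bars, where *Myh1* takes 18.5% to 24.8%.

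Further genes listed for slow and oxidative fibres, which the choice of the 10 had not used, were tested with limma across all genes, where 8.11% of genes were called at an FDR of 0.05, 5.5% as higher and 2.61% as lower in the mutant mice. Of 12 such genes, 7 rose and none fell, with a median log2 difference of 2.40. In 11 of them every mutant mouse was above every Wt mouse, as in 14.9% of all genes tested. The other was *Fabp3*, named after its values were seen, for which Wt mouse 2 was the highest of the 6 mice. Its log2 difference was 0.39 (limma adjusted p = 0.574). These mice are the ones on which the 10 genes were chosen, so the list is not independent evidence of a direction. *Mybpc1*, the slow form of myosin-binding protein C, was at 19.9, 180 and 70.8 in Wt mice 1, 2 and 3, against 658, 467 and 659 in the mutant mice, a log2 difference of 3.20 ± 0.73 (SE, limma adjusted p = 0.0484). *Lmod2*, which nucleates thin filaments, rose from 9.04 ± 8.05 to 69.0 ± 10.9 (log2 difference 3.23, limma adjusted p = 0.0271). *Actn2* rose from 34.1 ± 32.2 to 202 ± 32.5 (log2 difference 3.02, limma adjusted p = 0.0496). It codes for the alpha-actinin found in the Z-disc of every fibre type and so does not mark slow fibres, and without it 6 of the 11 remaining genes rose. *Smpx*, a small stretch-responsive muscle protein, had a log2 difference of 1.30 that did not pass (limma adjusted p = 0.0537).

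The calls on this list depended on single mice. They numbered 3 without Wt mouse 3, mutant mouse 2 or mutant mouse 3, 4 without mutant mouse 1, 5 without Wt mouse 1 and 8 without Wt mouse 2. *Casq2*, *Myl6b* and *Sln*, named after their values were seen, were called whichever mouse was left out. *Casq2*, the calcium-storing calsequestrin of slow and cardiac muscle, was at 1.89, 4.28 and 2.82 in Wt mice 1, 2 and 3, against 18.2, 14.8 and 19.7 in the mutant mice (log2 difference 2.42, limma adjusted p = 0.00455). *Myl6b*, a slow essential light chain, was at 6.41, 5.93 and 5.22 in the Wt mice, against 17.8, 13.2 and 15.1 in the mutant mice (1.31, limma adjusted p = 0.00504). For *Myl6b*, unlike the 10 genes, Wt mouse 1 was the highest Wt mouse. *Sln*, sarcolipin, an inhibitor of the calcium pump, was at 0.0419, 1.02 and 0.673 in the Wt mice, against 8.54, 5.97 and 5.99 in the mutant mice (2.87, limma adjusted p = 0.00895). Wt mouse 1 had 1 read of *Sln*, below the value of 3 reads, so the size of its difference is known only roughly. *Sln* drops out under the filter of at least 10 reads in every library. *Mybpc1* was not called without Wt mouse 3 or any 1 of the mutant mice, *Actn2* was called only without Wt mouse 2, and *Lmod2* was not called without Wt mouse 3, mutant mouse 2 or mutant mouse 3. Over all alternatives the adjusted p of *Mybpc1* ran from 0.00557 to 0.139, that of *Actn2* from 0.0142 to 0.151 and that of *Lmod2* from 0.00176 to 0.0981.

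**Figure D4:**
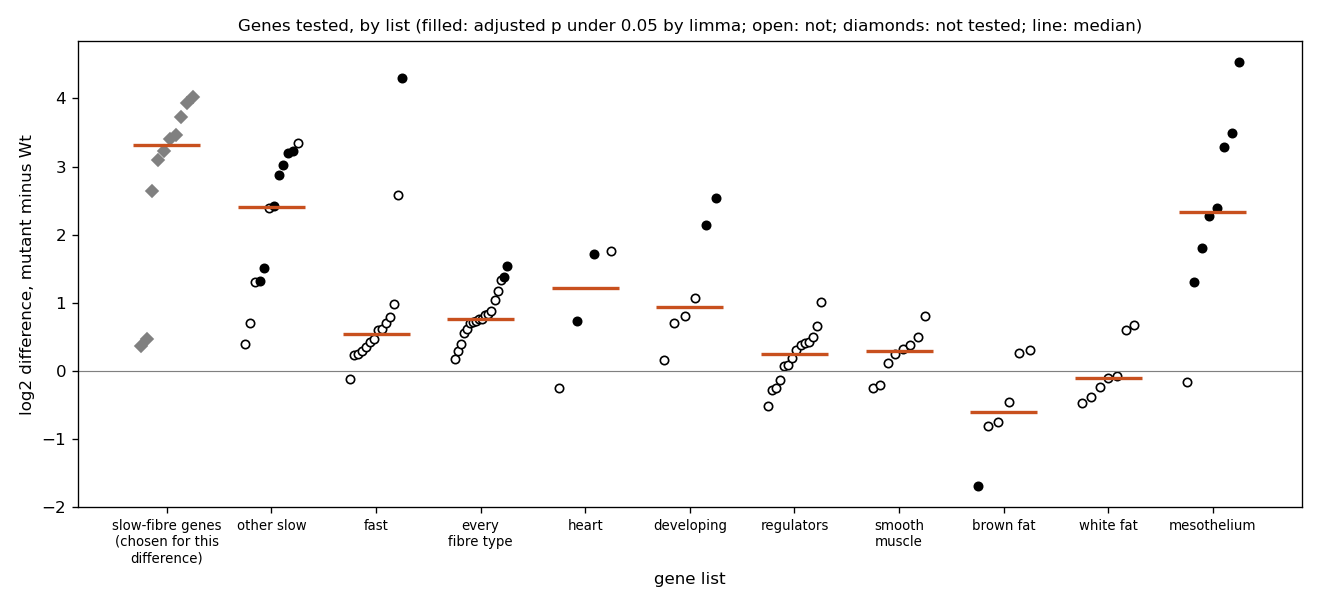
Log2 difference, mutant minus Wt, of each tested gene of each list, with filled circles for genes called by limma at an FDR of 0.05, open circles for genes not called, grey diamonds for the 10 slow-fibre genes (not tested) and a line at the list's median. The medians are 3.32 for the 10 genes, 2.40 for other slow genes, 0.54 for fast genes and 0.76 for genes of every fibre type.

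Among 14 fast-fibre genes, 1 rose and none fell, with a median log2 difference of 0.54. The gene that rose was *Myh1*, at 31.1, 279 and 166 in Wt mice 1, 2 and 3, against 2405, 1986 and 2385 in mutant mice 1, 2 and 3, a ratio of means of 14.2 and a log2 difference of 4.31 ± 0.75 (SE, limma adjusted p = 0.0208). The lowest mutant mouse was far above the highest Wt mouse, yet *Myh1* was not called without Wt mouse 3, mutant mouse 2 or mutant mouse 3, where the count of the list was 0, and its adjusted p over all alternatives ran from 5.6e-05 to 0.079. Without Wt mouse 2 the count was 2. *Myh2* was at 23.0, 172 and 57.0 in the Wt mice, against 439, 257 and 443 in the mutant mice and did not pass (log2 difference 2.58, limma adjusted p = 0.075). *Myh4*, the most abundant of the list, was at 11320, 9722 and 5081 in the Wt mice, against 8855, 5278 and 9267 in the mutant mice (log2 difference -0.12, limma adjusted p = 0.891), and the sign of this difference turned to 0.11 without Wt mouse 1 and 0.14 without mutant mouse 2. The fast partners of the slow genes did not pass either. Their log2 differences were 0.98 for *Mylpf* (limma adjusted p = 0.118), 0.70 for *Tnnt3* (0.293), 0.61 for *Myl1* (0.313), 0.60 for *Tnnc2* (0.327), 0.47 for *Tnni2* (0.414) and 0.29 for *Atp2a1* (0.681), which turned to -0.06 without Wt mouse 3. Without *Myh1* and *Myh2*, the fast genes had no trough in Wt mouse 1. Wt mouse 2 was at 0.819 to 0.991 times Wt mouse 1 for these 12 genes, and Wt mouse 3 was the lowest Wt mouse for all 12.

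The 18 genes that every striated fibre uses were taken as a measure of the amount of muscle RNA in a library. All 18 had a positive log2 difference (median 0.76), except that *Ckm* (-0.17) and *Ryr1* (-0.03) turned negative without Wt mouse 3, and 2 rose and none fell. The most abundant were *Acta1*, skeletal actin (0.72, limma adjusted p = 0.308), *Ckm*, muscle creatine kinase (0.18, 0.793), *Tpm1*, alpha-tropomyosin (0.70, 0.270), and *Ttn*, titin (0.83, 0.193), none of which passed. The 2 that rose, named after their values were seen, were *Klhl41* (log2 difference 1.54, limma adjusted p = 0.0173), a stabiliser of thin filaments, and *Xirp2* (1.38, 0.0301), an actin-binding protein of the Z-disc. Without Wt mouse 1, Wt mouse 2, Wt mouse 3 or mutant mouse 1 the count was 1, and without mutant mouse 3 it was 0. The mean log2 value of the 18 genes was 8.55, 8.59 and 7.62 in Wt mice 1, 2 and 3, against 9.29, 8.66 and 9.26 in mutant mice 1, 2 and 3. Wt mice 1 and 2 therefore had nearly equal amounts of muscle RNA by this measure, while their *Myh7* differed by 60.7 times, and mutant mouse 2 was close to both.

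Each slow gene was then expressed relative to the mean of the 18 genes of the same mouse, a scale added after the data were seen. On this scale the mean of 8 genes, without *Tpm3* and *Atp2a2*, was -7.88, -3.48 and -4.16 in Wt mice 1, 2 and 3, against -2.55, -2.45 and -2.65 in mutant mice 1, 2 and 3. The mutant mice lay close together, with an SD of 0.102, against 2.37 in the Wt mice, whose unevenness the choice of the genes had used. The 8 genes stayed above the Wt mice in every mutant mouse, which the choice also favours. The median log2 difference of the 10 genes was 2.50 on this scale. *Tpm3* and *Atp2a2* changed sign, to -0.46 and -0.36, and overlapped between the genotypes.

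**Figure D5:**
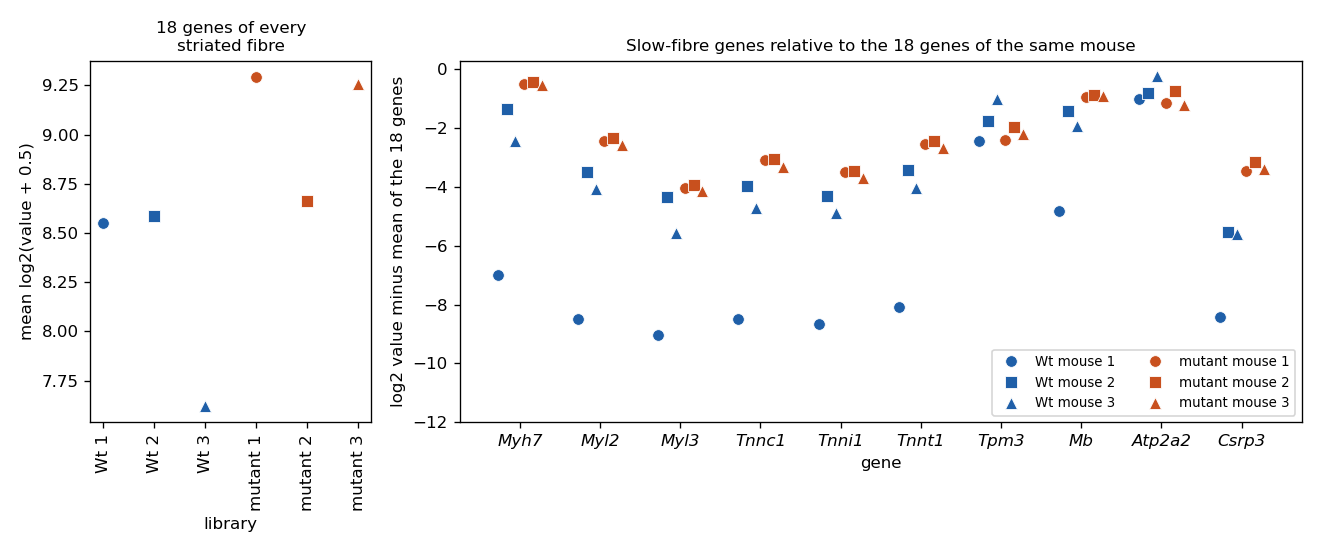
Left, mean log2(value + 0.5) of 18 genes of every striated fibre in each library. Right, log2 value of each slow-fibre gene minus that mean in the same mouse. For 8 genes the mutant mice nearly coincide above all Wt mice, and Wt mouse 1 is lowest for these 8.

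Several of the 10 genes are also expressed in the heart or in developing muscle, so the lists of those tissues were examined. The heart's hormones were at or near 0, with *Nppb* at 0 in all 6 mice and *Nppa* at most 0.105. The atrial light chain *Myl7* was at 0 in every Wt mouse and at most 0.0524 in a mutant mouse. Of the 4 heart genes that passed the filter, 2 rose, *Tnnt2*, cardiac troponin T (log2 difference 1.71, limma adjusted p = 0.0180), and *Myl4*, the atrial light chain (0.73, 0.0232), both of which embryonic skeletal muscle also makes. *Actc1*, cardiac actin (1.76, 0.0616), and *Tnni3*, cardiac troponin I (-0.25, 0.632), did not pass. The 2 calls were lost without Wt mouse 1, Wt mouse 2 or mutant mouse 2, and 1 was left without Wt mouse 3 or mutant mouse 1. In the list of developing or regenerating muscle, 2 of 6 tested genes rose, with the same count whichever mouse was left out. These were the perinatal myosin *Myh8*, at 1.51, 1.02 and 1.64 in Wt mice 1, 2 and 3, against 11.9, 8.80 and 10.7 in the mutant mice (log2 difference 2.54, limma adjusted p = 0.00166), and, named after its value was seen, the embryonic myosin *Myh3* (2.14, 0.00570). The Wt mice differed by at most 1.61 times for *Myh8*, against 60.7 times for *Myh7*. Sequence that *Myh8* and *Myh3* share with other myosins, such as the far more abundant *Myh1*, was not measured. Misplaced reads of those myosins were not tested. *Myf6*, *Cdh15* and *Myod1*, genes of muscle precursors and fibre nuclei, did not pass, with log2 differences of 0.71 (limma adjusted p = 0.242), 0.81 (0.114) and 1.07 (0.126).

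None of 14 regulators of the slow and fast programmes passed limma at the FDR, nor edgeR's quasi-likelihood test, and DESeq2 called 2. The fit with a replicate block called 1 higher and 3 lower. At an unadjusted p under 0.05, limma counted 4 higher and 2 lower, where 24.2% of all genes tested had such a p. *Mef2c*, a transcription factor of muscle genes, was at 118, 183 and 121 in Wt mice 1, 2 and 3, against 217, 184 and 257 in the mutant mice (log2 difference 0.66, limma adjusted p = 0.112). *Tead1*, which binds the MCAT element, had a log2 difference of 0.49 (0.0941), *Mef2d* one of -0.29 (0.162) and *Ppp3ca*, the catalytic subunit of calcineurin, one of 0.19 (0.381). Without Wt mouse 2 the limma count at the FDR was 1.

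Markers of the mesothelial cells that cover internal organs separated the genotypes as well. Of 8 markers 7 rose and none fell, where 5.5% of all genes tested rose. The count was 7 without mutant mouse 1 and 6 without any other mouse. This list was chosen with earlier results of these data known, so the count is not independent evidence. The summed value of the 8 was 8.32 to 34.0 in the Wt mice and 42.8 to 85.7 in the mutant mice. *Upk3b*, a mesothelial uroplakin, was at 0.0838, 0 and 1.09 in Wt mice 1, 2 and 3, against 27.7, 11.4 and 16.6 in the mutant mice (log2 difference 4.53, limma adjusted p = 0.00487). The gene *Wt1*, a transcription factor of mesothelium, was at 0 in Wt mouse 1 and at most 0.0486 in the other Wt mice, against 1.39 to 2.88 in the mutant mice (2.38, 0.00414). The mesothelial part in the slow-fibre values was not tested. *Krt19*, the marker that was not called, made up 28.5 of the 34.0 in Wt mouse 1, and without it the sum of the other 7 was 5.49, 5.59 and 8.58 in the Wt mice, against 76.8, 38.8 and 52.3 in the mutant mice.

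The promoters of the genes were compared as a description of their sequence, since a common pattern over these mice had served to choose the genes. RefSeq promoter windows (GRCm38.p6), 250 bases before to 50 after the start of transcription, were found for 9 of the 10 genes, 16 windows in all, some of which overlap. *Atp2a2* had none. Both windows of *Myl2* lie upstream of the gene as GENCODE M21 annotates it, the nearer ending 7713 bases before its start, so the start used in slow fibres may not be covered. Both strands were searched for the E-box CANNTG, bound by MyoD and its relatives, the MCAT element CATTCC, bound by TEAD factors, the nuclear receptor half-site AGGTCA, the TATA element TATAAA and the MEF2 element. No match of one overlapped a match of another in these windows. The upstream 250 bases are shown for a heavy chain, a light chain and 2 troponin subunits, with matches in capitals. They are at chr14:54994550-54994799 (minus strand) for *Myh7*, chr9:110763428-110763677 (plus strand) for *Myl3*, chr14:31208062-31208311 (plus strand) for *Tnnc1* and chr7:4515976-4516225 (minus strand) for *Tnnt1*.
Myh7: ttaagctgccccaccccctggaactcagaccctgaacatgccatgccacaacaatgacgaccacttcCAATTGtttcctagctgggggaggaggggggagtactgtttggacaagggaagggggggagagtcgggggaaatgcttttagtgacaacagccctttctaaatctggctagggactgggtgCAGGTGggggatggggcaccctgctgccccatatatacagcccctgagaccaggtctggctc
Myl3: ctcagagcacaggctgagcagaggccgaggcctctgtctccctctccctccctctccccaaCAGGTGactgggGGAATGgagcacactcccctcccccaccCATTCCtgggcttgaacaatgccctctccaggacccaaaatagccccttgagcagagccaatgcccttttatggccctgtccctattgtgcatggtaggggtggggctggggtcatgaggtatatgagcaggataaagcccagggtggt
Tnnc1: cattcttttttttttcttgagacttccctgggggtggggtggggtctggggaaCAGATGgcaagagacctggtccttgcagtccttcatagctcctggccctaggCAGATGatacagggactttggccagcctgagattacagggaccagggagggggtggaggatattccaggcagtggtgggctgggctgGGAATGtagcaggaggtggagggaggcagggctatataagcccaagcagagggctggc
Tnnt1: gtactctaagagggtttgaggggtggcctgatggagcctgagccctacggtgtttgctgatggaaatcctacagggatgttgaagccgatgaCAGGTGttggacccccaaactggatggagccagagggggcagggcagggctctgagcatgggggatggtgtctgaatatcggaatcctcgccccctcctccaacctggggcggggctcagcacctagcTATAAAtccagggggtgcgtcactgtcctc
In these letters *Myl3* has 1 E-box at -189 and MCAT matches at -177 and -149 from the start, *Tnnc1* has E-boxes at -197 and -145 and an MCAT match at -58, and *Tnnt1* has an E-box at -158 and TATAAA at -30. *Myh7* has E-boxes at -183 and -62. All 16 windows held an E-box, which 72.3% of 32851 promoter windows of the genome also hold. MCAT was found in 3 of 16 windows (14.7% of all windows), the AGGTCA half-site in 4 (16.3%), TATAAA in 2 (13.6%) and the MEF2 element in 0 (3.19%). Without the *Myl2* windows the counts were 14 of 14 for the E-box, 3 for MCAT, 3 for the half-site and 1 for TATAAA. In 11 windows of 10 fast-fibre genes, 8 held an E-box, 4 MCAT, 3 the MEF2 element, 4 TATAAA and 1 the half-site. With so few windows these counts are a description of the letters and do not set the genes apart.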

How the data were processed

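Inguinal fat RNA of 3 Wt and 3 mutant mice was sequenced, 1 library per mouse, and grouped by the genotype labels. The values deposited by the authors are a normalized signal per gene, reads scaled to CPM with a further factor for each mouse. The submitters' processing notes name Bowtie2 2.1.0, RSEM 1.2.15, edgeR and the build mm10. The annotation and the use of strand are not given in the sources used here. Dividing by the value of 1 read gave whole numbers (within 0.01) for 100% of the nonzero values, so the reads were recovered, 19607423 to 24228381 per library. Intervals and the floor of 3 reads cover counting error only.

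The genotypes were compared on log2(value + 0.5), a scale that understates changes of low genes, with limma 3.58.1 (mean-variance trend, Benjamini-Hochberg adjustment, FDR 0.05) in R 4.3.3. The 16868 genes tested were those kept by filterByExpr of edgeR 4.0.16. With 3 mice against 3, an exact permutation test of a single value cannot go below 0.1 and was not used. The tests were checked on simulated data. The slow-fibre genes and the gene lists were chosen with earlier results of these data known. From most lists the genes named were those of the 4 with the highest mean value. *Actn3*, *Gpm6a* and *Lrrn4* were left out, and no gene of the B cell, keratinocyte and Schwann cell lists was named. Also named were the fast partners of the slow genes, *Myh1*, *Myh2*, *Myh4*, *Ucp1*, *Upk3b*, *Wt1*, *Thra* and the 8 genes most like the slow-fibre profile. Other listed genes are said to be named after their values were seen, except the heart genes *Nppb*, *Nppa*, *Myl7* and *Myh6*.

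Exon lengths and coordinates were taken from GENCODE M21 on GRCm38, which held 55480 identifiers (99.8%). Slow shares used reads per kilobase of all annotated exons of a gene merged, with exact Clopper-Pearson 95% intervals. The size of a share therefore depends on the annotation. The alternatives were pseudocounts of 0.1 and 1, no filter or at least 10 reads in every library, scaling by library size, TMM or DESeq2's size factors, edgeR's quasi-likelihood test and DESeq2 1.42.0 on the recovered reads, fits with a replicate block, and fits without each mouse. The remaining steps used Python 3.11.15, pandas 2.3.3, SciPy 1.17.1 and Matplotlib 3.10.9.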

Additional observations from a re-analysis of the deposited data

How the results depend on the processing

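All 10 slow-fibre genes kept a positive log2 difference in the 159 values computed under alternatives. These were other scalings, pseudocounts, filters, tests, the replicate block and fits with each mouse left out. Each value differed from the main one by less than the larger genotype SD on the log2 scale. That SD is wide where the Wt mice were uneven, for which the genes were chosen, so this is a weak check. The log2 difference of *Myh7* ran from 2.38 to 5.21 with a mouse left out. The median of the 10 lay between 2.09 and 4.35 with a mouse left out, at 2.50 with edgeR's quasi-likelihood test and at 2.49 with DESeq2. *Myl3* had fewer than 10 reads in Wt mouse 1 and drops out under that filter. Over all genes, limma called 1368 (928 higher, 440 lower), DESeq2 2170, limma on genes with at least 10 reads in every library 598, and limma with a mouse left out 554 to 1005. With library size as the scaling the split was 1019 higher and 265 lower, and with no filter 1003 and 293. Of the 12 other slow genes, 7 were called, 3 with at least 10 reads, 4 by edgeR's quasi-likelihood test, 4 with a pseudocount of 0.1 and 3 to 8 with a mouse left out. After removal of genes that share exonic bases with an opposite-strand gene of at least 10 times their value, an alternative chosen after the data were seen, 6 of 10 were called. Of the fast genes, 1 was called, 2 by DESeq2 and 0 to 2 with a mouse left out. Of the genes of every fibre type, 2 were called, 6 by DESeq2 and 0 to 2 with a mouse left out. The cause of these shifts was not tested. Both genotypes have mice numbered 1, 2 and 3, which are different animals, and the main fit did not use the numbers as pairs. Between the Wt and the mutant mouse of a number, the deviations correlated at 0.69 for number 1, 0.06 for number 2 and 0.56 for number 3. No such value is given for mice of different numbers. The correlations therefore do not decide whether the numbers mark a shared source of variation. A replicate block on the number called 4063 genes (1733 higher, 2330 lower), 11 of the other slow genes, 1 fast gene and 4 genes of every fibre type. In Wt mouse 1 low counts limit the ratios, with 5 to 59 reads on *Myh7*, *Myl2*, *Myl3*, *Tnnc1*, *Tnni1*, *Tnnt1* and *Csrp3*. Its library was the deepest, at 24228381 reads.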

Other observations

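Of 6 brown and beige adipocyte markers tested, 1 fell, *Ucp1*, the uncoupling protein, at 15.5, 7.39 and 15.3 in Wt mice 1, 2 and 3, against 3.46, 3.23 and 3.51 in mutant mice 1, 2 and 3 (log2 difference -1.69, limma adjusted p = 0.0187). The call was lost without Wt mouse 1, Wt mouse 3, mutant mouse 2 or mutant mouse 3. Without mutant mouse 1 the count was 2, since *Cidea*, a lipid droplet protein, was then called as well (log2 difference -1.04, limma adjusted p = 0.0358). *Cox8b*, *Cidea*, *Otop1* and *Cox7a1* had log2 differences of -0.46, -0.75, -0.81 and 0.30 with all mice and did not pass. At an unadjusted p under 0.05, limma counted 4 of the 6 markers, all lower. None of 8 smooth muscle markers passed limma at the FDR (3 at an unadjusted p under 0.05, all higher, 0 by edgeR's quasi-likelihood test, 1 by DESeq2, 1 without Wt mouse 1). The most abundant were *Synpo2*, *Acta2*, *Myh11* and *Smtn*, with log2 differences of 0.38, 0.80, 0.32 and -0.21. None of 7 white adipocyte markers passed limma either (2 at an unadjusted p under 0.05, all higher, 0 by edgeR, 1 by DESeq2). *Fabp4*, *Plin1*, *Adipoq* and *Lipe*, the most abundant, had log2 differences of -0.10, -0.25, -0.08 and -0.47. *Lep* and *Retn*, named after their values were seen, had log2 differences of 0.67 and 0.59. For 6 Schwann cell markers the limma count was 0 (1 at an unadjusted p under 0.05, 0 by edgeR, 1 by DESeq2, 1 without Wt mouse 1), and for 5 tested keratinocyte and 5 B cell markers it was 0 by limma at either p, by edgeR and by DESeq2. With a replicate block, 4 brown and beige markers were called lower, and 1 smooth muscle and 1 Schwann cell marker higher. Of the white adipocyte markers, the block called 2 higher and 1 lower.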
